A study of Culex quinquefasciatus and Culex pipiens molestus with 2 samples.

Results

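The proteins of the cytosolic ribosome were read here as 143 transcript models out of 16198 that were listed with reads in at least 1 of 2 libraries. A model was taken as a member when its product description named a 40S or 60S ribosomal protein (acidic proteins included) or a ribosomal protein with an L or S number, and named neither mitochondria nor a kinase. By these names 74 models belonged to the small (40S) subunit and 69 to the large (60S) subunit. No expression value was used to choose them. The libraries came from females of laboratory strains of 2 house mosquitoes, Culex pipiens molestus, which lays its first eggs without blood, and Cx. p. quinquefasciatus, which generally needs blood to do so. RNA of 30 females was pooled for each taxon, selected for polyadenylated RNA and sequenced without strand, so each taxon is 1 library of a pool. Age, feeding state, body part and time of collection were not stated in the labels. The tables were tied to the taxa by their abbreviations alone (Cxm for molestus, Cxq for quinquefasciatus), every direction below rests on that link, and taxon and library cannot be told apart. No difference has a replicate check or a p-value.

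The ribosome joins amino acids into protein. Its small subunit binds the mRNA and reads the codons, and its large subunit holds the peptidyl transferase centre, the tunnel through which the new chain leaves, and a stalk of acidic proteins that calls in the elongation factors. One copy of most of these proteins is built into each ribosome. In insects such as Drosophila, their mRNAs are among the most abundant of a cell, and ribosomes are made in quantity in tissues such as the ovary, fat body and midgut.

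Depth was 9.79 M (mega) uniquely assigned reads for molestus and 10.17 M for quinquefasciatus. Levels are given in RPKM, reads per kilobase of model per M assigned reads, which allows levels of models of unlike length to be compared. Folds are ratios of RPKM between the libraries, with exact 95% conditional binomial intervals from the reads. Intervals of read shares are Clopper-Pearson intervals at the same 95% level. Both kinds of interval cover counting error only, and PCR copies without molecular identifiers are not independent molecules.

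Both subunits took a smaller part of the molestus library. Reads of 40S models made up 5.17% (5.16 to 5.19) of all reads in molestus and 9.92% (9.90 to 9.93) in quinquefasciatus. Reads of 60S models made up 8.43% (8.41 to 8.45) and 15.08% (15.06 to 15.10). Summed over members, 40S reads were 1.92-fold (1.91 to 1.92) and 60S reads 1.79-fold (1.78 to 1.79) higher per assigned read in the quinquefasciatus library. The 60S reads outnumbered the 40S reads 1.63 to 1 (1.62 to 1.64) in molestus and 1.52 to 1 (1.517 to 1.524) in quinquefasciatus. The balance was thus tilted slightly further to 60S in molestus, and it kept that order with summed RPKM in place of reads (1.55 against 1.47) and over names with a single model (2.18 against 2.11). Bulk RNA cannot tell fewer cells of a ribosome-rich type from less of these mRNAs per cell.

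Not every model with a ribosomal protein name was an abundant transcript. In the library where it was higher, a model reached at least 500 RPKM in 73 cases (31 of 40S and 42 of 60S). A further 7 models lay between 100 and 500 RPKM, 4 between 10 and 100, 24 between 1 and 10, and 35 stayed under 1 RPKM. The limit of 500 RPKM was chosen after the values were seen. The model just inside it was the S28 model CPIJ015556, at 330 RPKM in molestus and 603 RPKM in quinquefasciatus, and the one just outside was the L24 model CPIJ001214, at 195 and 339 RPKM. The 73 abundant models carried 99.4% of the members' reads in molestus and 99.7% in quinquefasciatus. The 59 models under 10 RPKM carried 300 reads in molestus and 371 in quinquefasciatus.

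**Figure D1:**
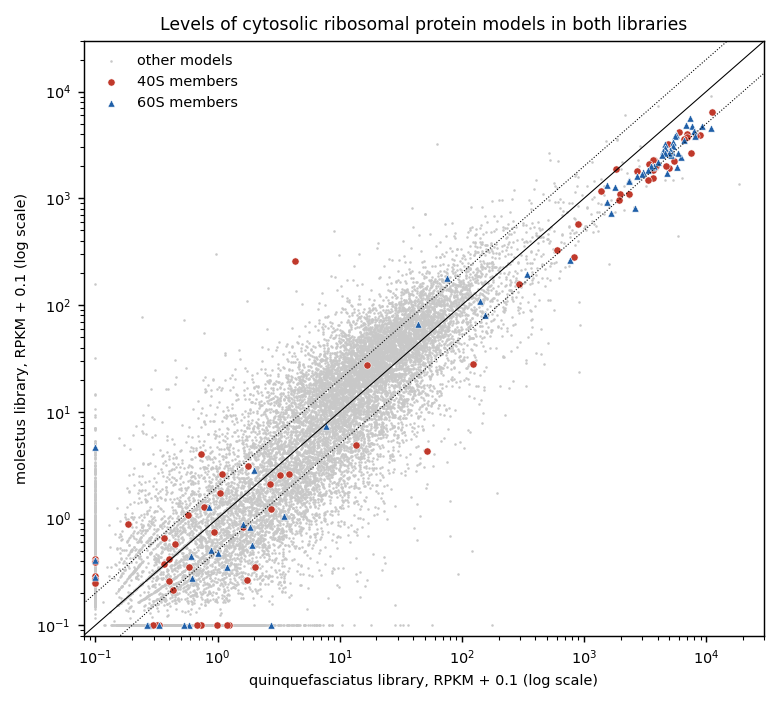
Levels of all listed models in the quinquefasciatus (x axis) and molestus (y axis) library, as RPKM + 0.1 on log scales. Grey points are other models, red circles 40S and blue triangles 60S members, the solid line marks equal levels and the dotted lines 2-fold. The abundant members lie together below the line of equal levels at the upper end, and a scatter of members with few reads lies at the lower end.

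The abundant and the rare members also differed in model length. Read coverage follows from the number of reads, since 1 read covers about 90 bases and no model under 1 RPKM had more than 9 reads. Reads covered a median of 99% of the length of the 73 abundant models in molestus and 99.2% in quinquefasciatus. In the 35 models under 1 RPKM the median was 13.8% and 21.1%. All 35 of these models, and 23 of the 24 between 1 and 10 RPKM, had a length that is a multiple of 3, as coding sequences without untranslated regions have. Of the 73 abundant models 25 (34.2%) had such a length, against 48.9% of the 186 other models of at least 500 RPKM and 95.9% of the 3374 other models under 1 RPKM. The same contrast between abundant and rare models thus held outside the ribosomal proteins. A rare model usually shared its name with another, as 53 of the 59 models under 10 RPKM did.

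The ratio of the libraries was compared over the 108 members that reached 1 RPKM in either library. It is given as log2 of the molestus over the quinquefasciatus value of (RPKM + 1), so that values below 0 are lower in molestus. Among 40S members 18 of 51 were at least 2-fold lower in molestus and 2 at least 2-fold higher, with a median of -0.86. Among 60S members 12 of 57 were at least 2-fold lower and 2 at least 2-fold higher, with a median of -0.78. Across all 12789 models compared, 18% were at least 2-fold lower and 22.8% at least 2-fold higher in molestus, and the median was 0.18. The 35 members under 1 RPKM are not in these counts, and a member with few reads enters them only if its higher library passed the limit. The 60S share of 2-fold calls was close to that background while its median was not, since most 60S models moved by somewhat less than 2-fold. The 40S and 60S medians differed by 0.08, and this difference turned to -0.041 with a pseudocount of 10 and to -0.050 without a filter. The counts also moved with the scaling, from 12 lower and 2 higher 60S members to 33 lower and 1 higher after scaling by the median ratio, and from 18 lower and 2 higher 40S members to 30 and 2.

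The 73 abundant members moved as a block. In 72 of them the level was lower in molestus with an interval wholly below 1-fold, and the median fold was 1.86 in 40S and 1.75 in 60S, quinquefasciatus over molestus. The interquartile range of the folds lay between 1.62 and 2.21 in 40S and between 1.58 and 1.94 in 60S. At least 2-fold lower were 11 of 31 models of 40S and 10 of 42 of 60S, and 0 were 2-fold higher. A short S9 model, the second S28 model and the second P2 model reached 500 RPKM only in quinquefasciatus, the library where they were higher, and without these 3 the counts were 69 of 70 lower and 19 of 70 at least 2-fold lower. Of all 259 models of at least 500 RPKM, members included, 23.6% were 2-fold lower and 18.5% were 2-fold higher. Without the members these shares were 21.5% and 25.8% of 186 models. The standard deviation of the log2 ratio was 0.34 over the 31 abundant 40S and 0.32 over the 42 abundant 60S models, against 1.56 over the 186 other models of that level. Scaling by the median ratio, by the trimmed mean of M-values (TMM) and by the total without members shifted all log2 ratios by -0.30, -0.21 and -0.20. Under these scalings 50, 45 and 44 of the 73 models were at least 2-fold lower in molestus, in place of 21.

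**Figure D2:**
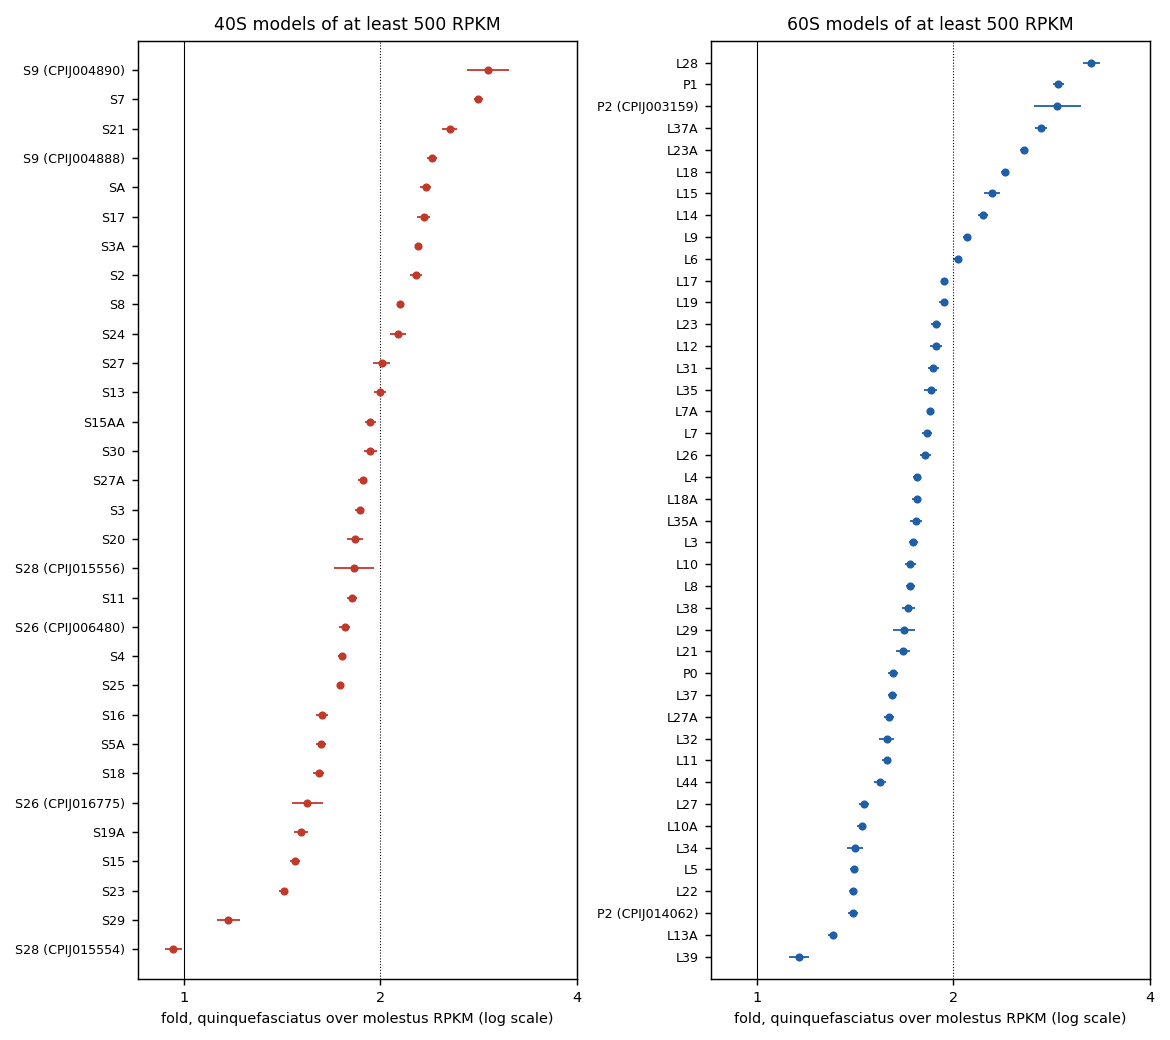
Fold of RPKM, quinquefasciatus over molestus, on a log scale for each 40S (left) and 60S (right) model of at least 500 RPKM, sorted by fold. Points are the fold and bars its exact 95% counting interval, the solid line marks 1-fold and the dotted line 2-fold. All points but 1, the S28 model CPIJ015554, lie to the right of the 1-fold line, and the folds run from 0.96 to 2.93 in 40S and from 1.16 to 3.25 in 60S.

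Levels among the abundant members were unequal. They spanned 24-fold in molestus (266 to 6395 RPKM) and 18.4-fold in quinquefasciatus (603 to 11109 RPKM), with medians over the 73 models of 2274 and 4580 RPKM. The order of levels was much the same in both libraries. Pearson's r of log2 RPKM was 0.935 and Spearman's rho 0.915 over the 73 models, a description across models that share 2 libraries and are not independent replicates. The fold had little relation to level (rho -0.01 between log2 ratio and mean RPKM) or to model length (rho -0.18). The 25 shortest of these models, of 300 to 609 bases, had a median fold of 1.74, and the 25 longest, of 760 to 1477 bases, one of 1.82.

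In the small subunit S25 (CPIJ013966), a protein of the 40S head, stood highest, at 6395 RPKM in molestus and 11109 in quinquefasciatus. Its fold of 1.74 (1.71 to 1.76) was close to the median of the subunit. S3A (CPIJ008584), which lies near the mRNA exit, had 3940 and 8991 RPKM, and S8 (CPIJ011589) had 3860 and 8287 RPKM. Both were past 2-fold higher in quinquefasciatus, S3A by 2.28-fold (2.26 to 2.31) and S8 by 2.15-fold (2.12 to 2.17). The largest fold among the 40S models past 500 RPKM in both libraries was that of S7 (CPIJ006763), at 2666 and 7535 RPKM or 2.83-fold (2.78 to 2.87). The short S9 model (CPIJ004890), which passed only through quinquefasciatus, had 282 and 824 RPKM, a fold of 2.93 (2.72 to 3.15). S21 (CPIJ001119), at 1931 and 4931 RPKM, was 2.55-fold higher (2.48 to 2.63). S7 rose from place 11 among the 31 abundant 40S models in molestus to place 4 in quinquefasciatus.

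The lowest folds among abundant 40S models were those of S28, S29 and S23. S28 (CPIJ015554), next to the mRNA exit, had nearly equal reads, 9118 in molestus and 9120 in quinquefasciatus, or 1886 and 1816 RPKM. It was the only abundant member above 1-fold in molestus, at 1.04-fold (1.01 to 1.07), and it fell below 1-fold under each rescaling (0.85-fold by the median ratio, 0.90-fold by TMM and 0.90-fold by the total without members). S29 (CPIJ009519), a zinc-binding protein of the head, had 1172 and 1372 RPKM, 1.17-fold higher in quinquefasciatus (1.12 to 1.22). S23 (CPIJ001218), which forms part of the decoding centre, had 4178 and 5947 RPKM, 1.42-fold higher (1.40 to 1.45). It stood at place 2 among abundant 40S models in molestus and at place 8 in quinquefasciatus.

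The proteins of the mRNA channel did not move alike. At the entry, the main models of S2 (CPIJ010326, 1481 and 3357 RPKM) and S9 (CPIJ004888, 2259 and 5429 RPKM) were both higher in quinquefasciatus, S2 by 2.27-fold (2.22 to 2.31) and S9 by 2.40-fold (2.36 to 2.45). S3 (CPIJ013941), also of the entry, had 2700 and 5027 RPKM, a fold of 1.86 (1.83 to 1.89). At the exit, the main S26 model (CPIJ006480) had 2671 and 4714 RPKM, a fold of 1.76 (1.73 to 1.80). Of 9 channel models with at least 100 RPKM, 3 were at least 2-fold lower in molestus, both S9 models among them, and 0 higher. Of all 1391 models of that level 16% were lower and 32.3% higher. The channel was near its own subunit, where 12 of 34 members of that level (35.3%) were lower and 1 higher. S27A (CPIJ003099), which is made as a fusion with ubiquitin, had 3723 and 6994 RPKM, a fold of 1.88 (1.85 to 1.91).

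In the large subunit L18 (CPIJ000205) was the most abundant by the mean of both libraries, at 4603 RPKM in molestus and 11036 in quinquefasciatus, and 2.40-fold higher in the latter (2.37 to 2.43). L17 (CPIJ015624), which lines the exit tunnel, had 4800 and 9299 RPKM, a fold of 1.94 (1.91 to 1.96). L13A (CPIJ018954) had 5703 and 7444 RPKM, a fold of 1.31 (1.29 to 1.32), and was the most abundant 60S model in molestus but place 6 in quinquefasciatus. The largest fold among abundant 60S models was that of L28 (CPIJ008421), a protein that animals have and budding yeast lacks. It had 807 and 2625 RPKM, a fold of 3.25 (3.16 to 3.35). L37A (CPIJ007698), a zinc-binding protein, had 1746 and 4754 RPKM, a fold of 2.72 (2.66 to 2.78).

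The stalk proteins moved unequally. P1 (CPIJ010918), which pairs with P2 on the stalk, had 1976 RPKM in molestus and 5727 in quinquefasciatus, 2.90-fold higher (2.84 to 2.95). Its partner P2 (CPIJ014062) had 3264 and 4580 RPKM, 1.40-fold higher (1.38 to 1.43), and P0 (CPIJ009501), the anchor of both, had 1439 and 2327 RPKM, 1.62-fold higher (1.59 to 1.65). The main P2 model thus stood above P1 in the molestus library and below it in the quinquefasciatus library. L12 (CPIJ015286), at the stalk base, had 1993 and 3749 RPKM, a fold of 1.88 (1.84 to 1.92).

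The peptidyl transferase centre and the 5S particle moved more narrowly than the stalk. Around the peptidyl transferase centre, L3 (CPIJ007488), L8 (CPIJ000162) and L10 (CPIJ018688) had 1705, 2664 and 1767 RPKM in molestus and 2958, 4573 and 3036 RPKM in quinquefasciatus. Their folds were 1.74 (1.71 to 1.76), 1.72 (1.69 to 1.74) and 1.72 (1.68 to 1.75), and the 3 intervals overlapped. L5 (CPIJ010112) and L11 (CPIJ013343), which enter the ribosome with the 5S rRNA, had folds of 1.41 (1.39 to 1.42) and 1.58 (1.55 to 1.61), from 4045 and 2806 RPKM in molestus to 5687 and 4432 in quinquefasciatus. Along the exit tunnel the folds were wide apart. L23A (CPIJ000279), the docking site of factors that meet the new chain, had 2419 and 6207 RPKM, a fold of 2.57 (2.53 to 2.61), and L39 (CPIJ010682), a very small protein of the tunnel wall, had 1340 and 1554 RPKM, a fold of 1.16 (1.12 to 1.2). The tunnel proteins L4 (CPIJ003890), L31 (CPIJ010692) and L35 (CPIJ012738) lay between, at folds of 1.76, 1.86 and 1.85.

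A set of 79 names of cytosolic ribosomal proteins of animals, written down after the descriptions were seen, was then looked up. Of these, 74 had at least 1 model, when L44 was read as L36A, S5A as S5, S19A as S19 and S15Aa as S15A, and 69 had a model of at least 500 RPKM. No listed model carried the names L13, L30, L36, L40 or L41, and models described as hypothetical proteins were not searched. L24 and S10 had no model of 500 RPKM but 1 of at least 100. Of S6, the substrate of S6 kinase, 4 models were listed and the highest by RPKM, CPIJ016021, had 7 reads in molestus and 17 in quinquefasciatus, or 1.12 and 2.63 RPKM. S12 (CPIJ003012) had 6 and 8 reads, and the highest of 8 S14 models, CPIJ000487, had 38 and 112 reads, 4.78 and 13.6 RPKM, a fold of 2.84 (1.95 to 4.22). S10 (CPIJ015987), a model of 165 bases, had 45 and 208 reads, 27.9 and 124 RPKM, and was 4.45-fold higher in quinquefasciatus (3.21 to 6.29). For S6, S12 and S14 the named models thus give no level comparable to the rest of the subunit.

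Of 81 protein names as the files give them, 24 had 2 or more models, 14 in 40S and 10 in 60S, and these 24 names held 86 of the 143 models. Uniquely assigned reads undercount near-identical copies, so the split of reads among models of 1 name is uncertain. How well each taxon's sequence matches the models was not tested. Its effect on assigned reads cannot be told apart from a difference in level. In 13 of the 24 names 1 model took over 99% of the reads of the name in both libraries, and in 23 the same model had the highest RPKM in both. The exception, a name written as so, had 2 models of at most 9 reads. S2 was typical of the first kind. Its main model held 12699 and 29891 reads, and its other 5 models held 11 reads in molestus and 8 in quinquefasciatus. The models with the lowest mean RPKM by subunit were likewise minor models of names with a far more abundant one. They were S2 CPIJ014473, S3 CPIJ015594 and S20 CPIJ016280 in 40S and L10 CPIJ018417, L7 CPIJ009265 and L18 CPIJ012021 in 60S. Each had 1 or 2 reads in 1 library and 0 in the other. Of the members, 15 had 0 reads in molestus and 10 in quinquefasciatus, and 0 reads allow up to 0.307 and 0.295 RPKM for a model of 1 kb.

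**Figure D3:**
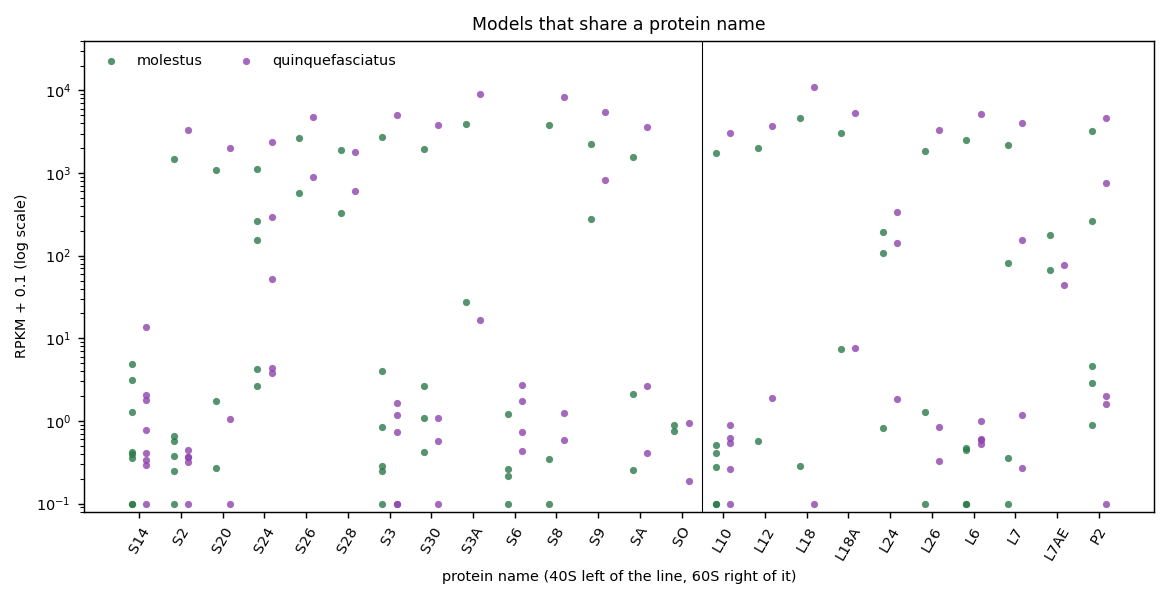
RPKM + 0.1 on a log scale of each model of the 24 protein names with 2 or more models, molestus in green and quinquefasciatus in purple, 40S names left of the vertical line and 60S names right of it. Points at 0.1 are models with 0 reads. Most names show 1 model far above the rest, which lie near or below 10 RPKM. S24, S26, S28, S9, L24, L7, L7ae and P2 show further models above 50 RPKM, and no model of S14, S6 or so reaches 100 RPKM.

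S24, a protein of the 40S body, had models whose uniquely assigned reads went opposite ways. Its main model CPIJ008982 held 6727 reads in molestus and 14879 in quinquefasciatus, 1105 and 2353 RPKM, or 2.13-fold higher in quinquefasciatus (2.07 to 2.19). A further model, CPIJ009083, went the other way with 1537 reads in molestus and 26 in quinquefasciatus. At 260 and 4.23 RPKM, with 72.9% and 66.5% of its length covered, it was 61.4-fold higher in molestus (41.7 to 94.3), the largest ratio of any member with at least 50 reads. It took 16% (15.3 to 16.8) of all S24 reads in molestus and 0.146% (0.0957 to 0.214) in quinquefasciatus. CPIJ008340 was the reverse, with 22 and 284 reads, 4.19 and 52.1 RPKM, and 12.4-fold higher in quinquefasciatus (8.05 to 20.1). CPIJ012775, at 157 and 296 RPKM, moved with the block at 1.89-fold (1.77 to 2.02). Summed over its 5 models, S24 was 1.78-fold higher in quinquefasciatus, inside the range of the other abundant proteins.

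Shares shifted in other names too. The highest S14 model held 55.9% (43.3 to 67.9) of 68 S14 reads in molestus and 80.6% (73.0 to 86.8) of 139 in quinquefasciatus. The second S28 model, CPIJ015556, took 11.8% (11.2 to 12.4) of S28 reads in molestus and 20.2% (19.4 to 20.9) in quinquefasciatus, at 330 and 603 RPKM, and unlike the main model was 1.82-fold higher in quinquefasciatus (1.70 to 1.96). The second P2 model, CPIJ003159, at 266 and 768 RPKM, was 2.89-fold higher (2.66 to 3.13) and its share of P2 reads was 3.89% (3.63 to 4.17) against 7.71% (7.41 to 8.01). Another P2 model, CPIJ018260, had 22 reads in molestus and 0 in quinquefasciatus. It was 7.62-fold higher in molestus when a floor of 3 reads replaces the 0, a value that leaves out the counting error of the 22 reads. For S26 the second model (CPIJ016775) took 11.9% and 10.5%, and for L7 the second model (CPIJ012743) took 3.17% and 3.34%, and these shares were close in both libraries. The S3a model CPIJ004845, at 27.2 and 16.5 RPKM, was 1.64-fold higher in molestus (1.42 to 1.91), while the main S3A model was higher in quinquefasciatus.

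L24, which joins the large subunit late in its assembly in yeast, had no model among the abundant. Its models CPIJ001214 and CPIJ010421 had 195 and 108 RPKM in molestus and 339 and 142 in quinquefasciatus, folds of 1.73 (1.61 to 1.86) and 1.31 (1.16 to 1.47). The 2 models named L7ae, a family of RNA-binding proteins with members inside and outside the ribosome, went against the block. CPIJ005033 had 179 RPKM in molestus and 76.0 in quinquefasciatus, 2.35-fold higher in molestus (2.13 to 2.61), and CPIJ005818 had 66.1 and 43.8 RPKM, 1.51-fold higher (1.28 to 1.77). After these the largest 60S ratio among models with at least 50 reads was that of the L18a model CPIJ011816, at 7.28 and 7.58 RPKM, whose interval for molestus over quinquefasciatus included 1 (0.691 to 1.33).

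Model identifiers were consecutive in 5 pairs of members, and in 2 of these pairs both models were abundant. S7 (CPIJ006763) and S20 (CPIJ006764) had unlike folds of 2.83 and 1.83, while L6 (CPIJ013940) and S3 (CPIJ013941) had folds of 2.03 and 1.86.

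Other genes of translation were taken by text patterns on the descriptions. Cytosolic elongation factors, which carry the ribosome along the mRNA, were 2-fold lower in molestus in 2 of 10 compared models and higher in 0. Their median log2 ratio was -0.67. Of 22 matched models 6 were at 0 reads in molestus and 2 in quinquefasciatus. Of the 10 compared, 1 was at 0 in molestus, and the limit of 1 RPKM makes such a model count as lower. The most abundant, elongation factor 1-alpha (CPIJ009303), had 9102 RPKM in molestus and 10921 in quinquefasciatus, 1.2-fold higher in quinquefasciatus (1.19 to 1.21), and elongation factor 1-gamma (CPIJ014663) had 1084 and 1469 RPKM, 1.36-fold higher (1.33 to 1.38). Initiation factors split, with 2 of 39 lower and 6 higher and a median of 0.09. Initiation factor 5A (CPIJ001289), at 2061 and 3620 RPKM, was 1.76-fold higher in quinquefasciatus (1.73 to 1.79), and an initiation factor 3 subunit (CPIJ005299), at 395 and 530 RPKM, was 1.34-fold higher (1.29 to 1.40). Translationally controlled tumor protein (CPIJ003607) had 2298 and 2773 RPKM, and the alpha subunit of the nascent polypeptide-associated complex (CPIJ008987) had 1078 and 956 RPKM, so neither reached 2-fold. Polyadenylate-binding proteins were 2-fold higher in molestus in 1 of 3 models, CPIJ004581, at 976 and 200 RPKM. The most abundant of the 3, CPIJ007980, went the other way, at 977 and 1157 RPKM or 1.185-fold higher in quinquefasciatus (1.165 to 1.205). Together the 3 models took 0.349% of molestus and 0.324% of quinquefasciatus reads.

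Genes that build ribosomes did not share the lower level in molestus. Ribosome biogenesis and nucleolar proteins were 2-fold lower in molestus in 0 of 33 models and higher in 9, with a median of 0.57. Among all 8029 models of at least 10 RPKM, 14.2% were lower and 29% higher and the median was 0.47, so the median and the share of higher models in the list were near those of models at its level. The nucleolar phosphoprotein p130 (CPIJ018253) had 740 and 246 RPKM, 3.0-fold higher in molestus (2.90 to 3.11), and a model named only nucleolar protein (CPIJ014566) had 561 and 334 RPKM, 1.68-fold higher (1.63 to 1.73). Mitochondrial ribosomal proteins, the parts of the separate ribosome of the mitochondrion, had a median of 0.10 with 4 of 63 lower and 9 higher. S6 kinases, which phosphorylate S6, were higher in 4 of 6 models and lower in 1, and a beta-1 model (CPIJ003064) had 66.4 and 26.9 RPKM, 2.47-fold higher in molestus (2.24 to 2.72). Each count stands against the 18% lower and 22.8% higher among all models compared. No model matched the pattern for RACK1, the scaffold protein of the small subunit. The rescaling shift of -0.30 turns the mitochondrial median below 0 and leaves the biogenesis median above it. Differences between lists were not tested.

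**Figure D4:**
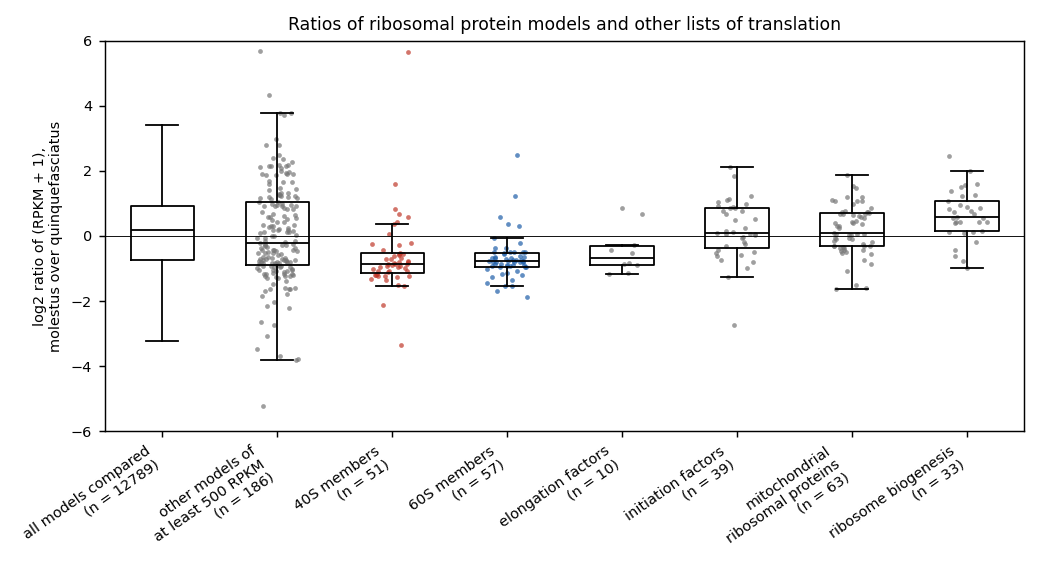
Log2 ratio of (RPKM + 1), molestus over quinquefasciatus, for all 12789 compared models (box only), the 186 other models of at least 500 RPKM, 40S and 60S members and 4 other lists. Points are models, boxes the interquartile range with the median, whiskers reach to 1.5 times the box. The 40S and 60S boxes lie below 0 and the box of ribosome biogenesis above 0 as deposited.

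Markers of other tissues and of dividing cells also differed between the libraries. Their counts stand against 18% at least 2-fold lower and 22.8% at least 2-fold higher in molestus among all models compared. DNA replication genes were 2-fold higher in molestus in 13 of 17 compared models and lower in 0, and took 0.585% of molestus and 0.0661% of quinquefasciatus reads. Of 23 matched models 4 were at 0 reads in molestus and 0 in quinquefasciatus, and those 4 stayed below the limit for comparison. Cyclin B models, marks of dividing and germ cells, were 2-fold higher in 3 of 4 models and lower in 1, which was at 0 in molestus. They took 0.462% and 0.121% of reads. Trypsins of the midgut were 2-fold lower in molestus in 23 models and higher in 2, and took 0.209% and 1.22% of reads over 39 compared models, and of 55 matched models 9 were at 0 reads in molestus and 6 in quinquefasciatus. Opsins of the eye were 2-fold lower in 4 of 7 models and higher in 0, and took 1.31% and 2.59%. These shares rested mostly on 2 opsin-1 models that were not among the 4. They were CPIJ011571, with 66111 and 133329 reads, and CPIJ012052, with 57219 and 114997 reads. Both were lower in molestus by just less than 2-fold (log2 ratios -0.96 and -0.95). Myosin heavy chains of muscle did not move one way, with 2 of 8 models lower and 2 higher, 4 above 0, and a median of 0.05. Their shares of 0.0765% and 0.186% rested mostly on CPIJ000853, with 3972 and 12889 reads. The next model, CPIJ011483, with 2057 and 4271 reads, was also lower in molestus, just short of 2-fold (log2 ratio -0.99). None of the matched opsin and myosin models was at 0 reads. Yolk genes, 4 models named vitellogenin or vitellogenic, had a median of -0.18 with 2 models below and 2 above 0. Their shares of 0.0588% and 0.0274% rested on 1 vitellogenic carboxypeptidase (CPIJ008608), with 5346 and 2182 reads, and of 9 matched models 1 and 2 were at 0. The part of tissue make-up in the ribosomal protein result was not tested.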

How the data were processed

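Per the file headers, the authors deposited, per transcript model, a count of reads assigned to it alone, its length, the percent of that length covered by reads, and RPKM. A model missing from a table was given 0 reads, since the tables hold no model at 0. Deposited RPKM and the value recomputed from count, length and total differed by at most 5.0e-08 of the value. For aligner, counting tool and model release the sources used here give no name. The tables were joined on model identifier. Ratios are log2(RPKM + 1) differences over models with at least 1 RPKM in 1 library, and folds are RPKM ratios without a pseudocount. With 1 library per taxon no test was run. The members and lists were chosen with earlier results of these data known. Members named in the text were, per subunit, the 3 highest and 3 lowest by mean RPKM, the 3 largest and 3 smallest ratios at 50 reads or more, names with several models, and members at known functional sites. Identifiers of 0 of the 143 members were found in the RefSeq gene table, so no positions or sequences are shown. Reads are not stranded, so overlapping antisense genes cannot be told apart. Python 3.11.15, numpy 2.4.6, pandas 2.3.3, scipy 1.17.1, matplotlib 3.10.9, and edgeR 4.0.16 in R 4.3.3 for TMM factors (1.07 for molestus and 0.931 for quinquefasciatus, over all listed models) were used. The calculation was tested on simulated counts with counting error only, which does not cover variation between pools or libraries.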

Additional observations from a re-analysis of the deposited data

How the results depend on the processing

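The median log2 ratio of 40S members, -0.86 as reported, was -0.64 without a filter on low values, -1.15 after scaling by the median ratio, -1.07 by TMM and -1.07 by the total without members. The 60S median of -0.78 was -1.08, -0.99 and -0.98 under the same scalings. The difference of the medians, 0.08, turned to -0.041 with a pseudocount of 10 and to -0.050 without a filter, so no order of the subunits by their medians held throughout. The 40S count of 18 models at least 2-fold lower in molestus was 30 under each scaling, 11 with models of 1 name summed and 2 at 4-fold. The 60S count of 12 was 33 by the median ratio, 27 by TMM, 26 by the total without members and 0 at 4-fold. Shares of summed RPKM in place of reads were 9.29% and 15.2% for 40S and 14.4% and 22.4% for 60S, molestus first, and over names with a single model the shares of reads were 3.08% and 5.60%, and 6.70% and 11.8%. The 60S to 40S ratio was 1.55 and 1.47 with summed RPKM, and 2.18 and 2.11 over names with a single model. The scalings shift all RPKM ratios alike, by -0.30 (median ratio), -0.21 (TMM) and -0.20 (total without members) in log2, so the changes under them follow from that shift. The cause of the other changes was not tested, apart from the smaller set of models that the last alternative and the summing by name leave. The other 38 values were called unmoved. Medians and their difference were held to the member range of the reported value, and counts to a set ratio to the reported count. That ratio is no counting interval, and the 40S count of 12 with a pseudocount of 10, against 18, passed it. Also unmoved were the values at a minimum of 100 RPKM and with the most abundant model of each name. So were those of the abundant members by other uses of the 500 RPKM limit. These alternatives were all chosen after seeing the data. No paired analysis was possible because each taxon has 1 library. Depth limits the models under 10 RPKM, where folds rest on few reads.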
